A study of Rattus norvegicus with 10 samples.

Results

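The subject is the set of genes for the proteins of the cytosolic ribosome in cultured rat Sertoli cells treated with follicle-stimulating hormone (FSH). Members were the probe sets whose single gene symbol began with Rpl or Rps and a digit, together with Rplp and Rpsa symbols, and S6 kinase genes (Rps6k) were left out. The rule found 64 of the 8740 probe sets that were not array controls, under 44 gene symbols. Of these, 28 symbols (41 probe sets) belong to the large 60S subunit, 2 (2 probe sets) to its acidic stalk and 14 (21 probe sets) to the small 40S subunit. A further 40 probe sets that list a ribosomal protein symbol beside other symbols were not members. Among them are the probe sets that list Rps14, Rps19, Rpl10 or Rplp2.

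Total RNA of Sertoli cells from 20-day-old rats was hybridised to 10 Affymetrix arrays. FSH had been present for 2, 4, 8 or 24 h, and the controls were untreated cultures at 0 h. Each time had 2 arrays, here named replicate 2 and replicate 1. The label of a 2 h array gives no replicate number, and that array was taken as replicate 1. A control label gives no time, and that array was taken as 0 h. No later untreated culture was labelled, so FSH and time in culture cannot be told apart, and a strain is not given in the labels. The labels do not say that the 2 replicates of a time were separate cultures, so a p-value below refers to the scatter of these arrays alone, which could be technical. In such bulk RNA, fewer cells of a type and less RNA per cell cannot be told apart.

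A ribosome is built from ribosomal RNA and one copy of nearly every ribosomal protein, and its subunits meet on the messenger RNA: the 40S subunit reads the message and the 60S subunit joins the amino acids. Transcripts of ribosomal proteins are among the most abundant in a cell, are long-lived, and mostly begin with an uninterrupted run of pyrimidines, the terminal oligopyrimidine (TOP) sequence, through which the mTOR pathway controls how much of them is translated. In Sertoli cells FSH is known to act through cyclic AMP and also to raise S6 kinase activity and protein synthesis. An array measures the amount of a transcript, not its translation.

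The start sites of members are shown because the TOP sequence lies there. Promoter entries of RefSeq (rat assembly GRCr8) existed for 37 of the 44 member symbols. Each line below gives 20 bases before and 20 bases from the annotated start, read 5′ to 3′ on the gene's strand, and capitals mark runs of 6 or more C or T within the stretch from 10 bases before to 20 bases after the start, which is where runs were searched. The first 3 belong to members with bright probe sets on every array, the next 3 to members that were higher on the replicate 2 arrays, Rpl26 to the member that was lower there, and Rps6 to the substrate of S6 kinase.
Rplp0: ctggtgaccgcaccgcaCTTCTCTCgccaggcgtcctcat
Rps23: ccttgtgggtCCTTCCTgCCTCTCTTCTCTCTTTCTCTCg
Rpl31: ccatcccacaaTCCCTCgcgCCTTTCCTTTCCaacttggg
Rpl17: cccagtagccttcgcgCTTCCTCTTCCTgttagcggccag
Rps24: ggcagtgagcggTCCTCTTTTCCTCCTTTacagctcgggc
Rpl4: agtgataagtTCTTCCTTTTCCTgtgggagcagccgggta
Rpl26: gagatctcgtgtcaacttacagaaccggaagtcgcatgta
Rps6: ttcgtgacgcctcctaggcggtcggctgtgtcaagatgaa

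Rplp0 lies at chr12:46718371-46718410 on the minus strand, Rps23 at chr2:23814497-23814536, Rpl31 at chr9:49143091-49143130, Rpl17 at chr18:70856256-70856295, Rps24 at chr16:96497-96536, Rpl4 at chr8:73566457-73566496 and Rpl26 at chr10:54109672-54109711 on the plus strand, and Rps6 at chr5:106420521-106420560 on the minus strand. These are windows around the first transcribed base in GRCr8. The array files themselves name no genome build.

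A run of at least 6 C or T on the gene's own strand, between 10 bases before and 20 bases after the start, was present in 24 of the 37 member promoters (64.9%), against 27.1% of all 33469 rat promoters. The letters CTTCCG, the core of an ETS factor site, occurred on either strand of the promoter entry, from 250 bases before to 50 after the start, in 16 members (43.2%), against 16.6% of all promoters. TATAAA within the 50 bases before the start, on the gene's own strand, occurred in 2 members (5.41%), against 2.26% of all promoters. CTTCCG can overlap a pyrimidine run, as its letters CTTCC are all C or T. In Rps6 and Rpl26 no such run was found in this window, which depends on the annotated start.

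Intensities below are the deposited values after each array was divided by a factor of 0.911 to 1.13, so that all arrays shared a 75th percentile of 107. Levels are given on this scale without a floor, and changes are on a log2 scale after values under 13.4 were set to it. A probe set was tested where its mean over all arrays reached 31.9, which 4439 probe sets and 60 of the 64 members did, under 42 symbols. The 4 that did not pass were the second probe set of Rpl3l, the stalk protein copy Rplp1l3 and both probe sets of the pseudogene Rps2-ps1. Their highest values on any array were 24.2, 14.1, 21.5 and 10.3. Of all 64 members, 57 lay above the 75th percentile of mean intensity. Processed pseudogenes and close copies of ribosomal protein genes are numerous, and a probe set can bind their transcripts too. Members with a pseudogene symbol (3 probe sets) or a copy or paralog symbol (6 probe sets) are therefore uncertain, and one probe set's level is not set against another's.

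Of the Sertoli marker genes, Clu (clusterin) lay at 6779 to 13782 and Shbg (androgen-binding protein) at 582 to 911 over all arrays. Others were low on some arrays, such as Gdnf at 5.46 to 50.7. An Fshr probe set lay at 1.48 to 14.5, and another at 56.6 to 195. On replicate 2 arrays, 14 germ cell marker genes summed to 2734 to 3200, and on replicate 1 arrays to 416 to 1179. For 12 Sertoli marker genes the sums were 11831 to 17034 on replicate 2 and 15778 to 22885 on replicate 1. The 3′ to 5′ signal ratio of beta-actin, a measure of RNA integrity and labelling, was 1.48 to 1.76 on replicate 2 and 0.928 to 1.17 on replicate 1. The part of these in the results below was not tested. Between times the sums overlapped: those of germ cell markers were 416 to 3200 at the FSH times and 1179 to 2867 at 0 h, and those of peritubular myoid markers 1317 to 5240 and 1302 to 1845.

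No ribosomal protein probe set passed the test at any time of FSH treatment against 0 h. With limma and Benjamini-Hochberg adjustment over all 4439 probe sets, 0 of 60 members had an adjusted p under 0.05 at 2 h, where 0.676% of all probe sets did, at 4 h (0.856% of all), at 8 h (0.766%) or at 24 h (0%). At an unadjusted p under 0.05 the counts were 0, 0, 1 and 0 of 60 members, against 203, 344, 413 and 204 of all 4439 probe sets. With replicate number as a block they were 1, 4, 3 and 3 members, against 333, 541, 690 and 411 of all. The F test over all 4 times called 0 members, where 0.991% of all probe sets were called. Between successive times 0 members were called from 2 to 4 h (0% of all), 4 to 8 h (0%) and 8 to 24 h (0.225%), and 0 at 24 h against 2 h (0.315%). In these and in the F test, 0 members had an unadjusted p under 0.05.

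Averaged over both replicate numbers, most changes were small in size, although the median member moved in opposite directions on the 2 numbers, as given below. The median log2 change of the 60 members was 0.01 at 2 h, -0.09 at 4 h, 0.02 at 8 h and 0.11 at 24 h, and that of all tested probe sets was -0.02, -0.03, -0.02 and 0.02. Of all 4439 tested probe sets, 2130, 2091 and 2145 were above their 0 h level at 2, 4 and 8 h. At 24 h, 2286 of them were above the control of the same number on replicate 2 and 2338 on replicate 1. Members above their 0 h level numbered 31, 23, 31 and 46 of 60. At 24 h, where the last of these stood, 8 of 8 tested probe sets of peritubular myoid markers were also above 0 h (median 0.78) and 8 of 8 of germ cell markers below it (median -0.32), with 0 called in either, and their part in the members' values was not tested. The change was under 0.5 in size for 90.0%, 88.3%, 85.0% and 81.7% of members, against 74.1%, 69.3%, 63.5% and 69.3% of all probe sets. It exceeded 1, a 2-fold change, for 1 member at 2 h, 3 at 4 h, 3 at 8 h and 1 at 24 h. The median standard error (SE) of a member's change was 0.39. Its 95% interval lay wholly within a 2-fold change in either direction for 21, 22, 20 and 24 of the 60, and for 36, 32, 36 and 38 with replicate number as a block. For the others the interval did not exclude a change of that size. The 60S members had medians of 0.03, -0.06, -0.01 and 0.11, and the 40S members -0.03, -0.16, 0.04 and 0.13.

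**Figure D1:**
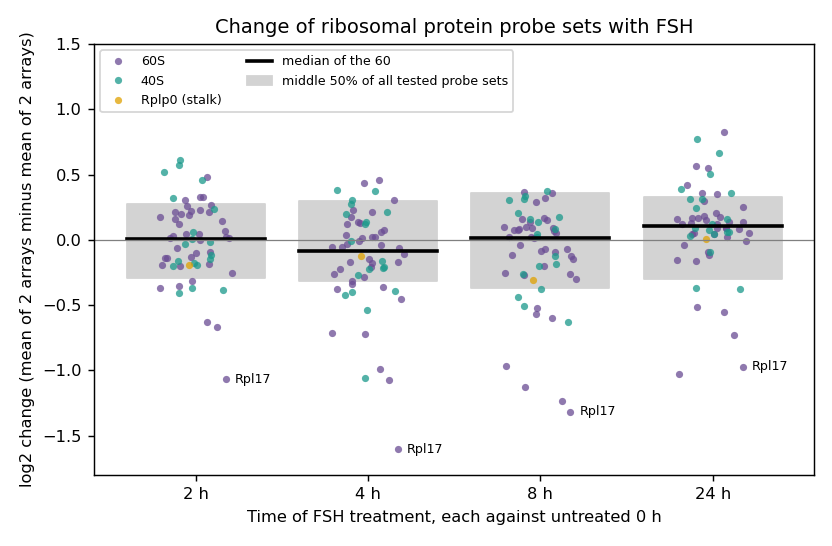
Log2 change of each of the 60 tested ribosomal protein probe sets (points, coloured by subunit) at 2, 4, 8 and 24 h of FSH, each against untreated 0 h, from 2 arrays per time. Black lines are the medians of the 60 (0.01, -0.09, 0.02 and 0.11), grey boxes span the middle 50% of all 4439 tested probe sets, and Rpl17 is the lowest member at 2, 4 and 8 h and the second lowest at 24 h.

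Among the 60S proteins, Rplp0, the stalk protein that anchors the translation factor site, gave 6547, 9511, 10682, 7166 and 9491 at 0, 2, 4, 8 and 24 h on replicate 2 and 12341, 6526, 6378, 7381 and 8578 on replicate 1. The 0 h values lay below all later ones on replicate 2 and above all later ones on replicate 1. Its log2 changes were -0.19, -0.12, -0.31 and 0.01 (SE 0.39 each). Rpl11, which with Rpl5 binds and restrains Mdm2 when ribosome assembly is disturbed, gave 2355, 3744, 3003, 3148 and 2633 on replicate 2 and 4464, 3871, 3624, 4202 and 4538 on replicate 1. FSH-treated and untreated values overlapped, and the changes were 0.23, 0.03, 0.17 and 0.09 (SE 0.40). For Rpl3, a core protein near the peptidyl transferase centre, changes of the 2 probe sets ran from -0.21 to 0.42. Rpl31, which lines the exit of the peptide tunnel, gave changes of 0.20, 0.23, 0.10 and 0.17 (SE 0.30).

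In the 40S subunit, Rps6, the substrate of S6 kinase, gave 3024, 4327, 4048, 3907 and 4288 at 0, 2, 4, 8 and 24 h on replicate 2 and 4525, 2687, 2531, 2721 and 3452 on replicate 1 in one of its probe sets. Here too the untreated value was the lowest of 5 on replicate 2 and the highest of 5 on replicate 1, and the mean changes were -0.12, -0.21, -0.18 and 0.06 (SE 0.39). Rps3, which lies at the messenger RNA entry and also acts in DNA repair, gave 4103, 6309, 6270, 5102 and 6669 on replicate 2 and 8897, 4423, 4273, 4265 and 5828 on replicate 1. Rps16, which contacts the transfer RNA in the P site, gave 6404, 8730, 9214, 7071 and 8171 on replicate 2 and 13983, 6021, 5652, 5317 and 6485 on replicate 1. Both showed the same opposite order of 0 h against later times, and their changes were -0.19, -0.22, -0.37 and 0.05 (SE 0.41) for Rps3 and -0.38, -0.39, -0.63 and -0.38 (SE 0.43) for Rps16. Rpsa, the laminin receptor precursor, had changes between -0.21 and 0.16 over its 2 probe sets.

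The highest changes belonged to few members, and none passed the test. Rps23, a protein of the decoding centre, gave 2036, 3005, 2750, 2580 and 3106 at 0, 2, 4, 8 and 24 h on replicate 2 and 2603, 3318, 3253, 3446 and 4306 on replicate 1. Every later value lay above its own control, while the 8 h value of replicate 2 lay below the untreated value of replicate 1. The changes were 0.46, 0.38, 0.37 and 0.67 (SE 0.32, limma adjusted p = 0.996 at 24 h). One of the 4 probe sets of Rpl21 gave 0.48, 0.46, 0.36 and 0.83 (SE 0.49) and another by 0.22, 0.43, 0.29 and 0.55 (SE 0.28). Rps3a had 0.52 at 2 h and 0.38 at 4 h, Rps27l, the p53-linked copy of Rps27, 0.57 at 2 h, Rpl3l, the paralog of Rpl3 known from striated muscle, 0.30 at 4 h, and Rpl24 0.32 at 8 h. Rpl22 had 0.36 at 8 h and 0.56 at 24 h. One Rps15 probe set had 0.61 at 2 h, 0.34 at 8 h and 0.77 at 24 h, with an SE of 0.82, and its untreated values were 632 on replicate 2 and 109 on replicate 1.

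The most negative change at 2, 4 and 8 h was that of Rpl17, a 60S protein at the tunnel exit. It gave 485, 322, 175, 318 and 332 at 0, 2, 4, 8 and 24 h on replicate 2 and 293, 101, 88.0, 72.2 and 111 on replicate 1. All 4 later values were below the untreated value of the same number, while later values of replicate 2 overlapped the untreated value of replicate 1. The changes were -1.07, -1.61, -1.32 and -0.97 (SE 0.83), and at 4 h limma's adjusted p was 0.795. The labels do not say that arrays of the same number at different times belong together. Deviations of the 0 h and 4 h arrays of a number correlated at 0.20, and at 0.56 among the members. With the number as a block, the Rpl17 change at 4 h had an SE of 0.36 and a 95% interval of -2.40 to -0.81. Its limma adjusted p was then 0.0435, for a 3.04-fold lower level. That was the only one of the 60 members called at 4 h with the block, where 2.95% of all probe sets were called. With the block, 0 members were called at 2 h (1.22% of all), 8 h (2.68%) and 24 h (0.0901%), and 0 by the F test over all times (3.22%). Rpl17 with the block had adjusted p values of 0.385 at 2 h, 0.0987 at 8 h and 0.454 at 24 h.

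Other members with low values did not pass the test with or without the block. Rpl30, a 60S protein, gave 186, 104, 92.7, 107 and 136 at 0, 2, 4, 8 and 24 h on replicate 2 and 67.8, 48.2, 30.6, 21.3 and 34.1 on replicate 1, with changes of -0.67, -1.08, -1.24 and -0.73 (SE 0.95). Rpl5, which carries 5S ribosomal RNA into the subunit, gave 94.4, 53.7, 44.2, 60.9 and 52.6 on replicate 2 and 41.5, 30.4, 22.6, 28.2 and 34.6 on replicate 1, with changes of -0.63, -0.99, -0.60 and -0.55 (SE 0.61). In both genes every later value was below the untreated value of its own number. Rps24 gave -0.40, -0.40, -0.51 and -0.37 (SE 0.69). The copy Rpl19l4 gave -0.19, -0.26, -0.97 and -1.03 (SE 2.54), and one Rpl21 probe set gave -0.72 at 4 h (SE 1.13). One probe set of Rpl13a, a protein that also silences messages of inflammation, gave 909, 935, 876, 697 and 745 on replicate 2 and 1592, 1169, 1035, 436 and 950 on replicate 1. Its change at 8 h was -1.13 (SE 0.39, unadjusted p = 0.0182, limma adjusted p = 0.372), the single member with an unadjusted p under 0.05, and its other probe set gave -0.09. At 4 h, -1.06 in one Rps15 probe set came from 1 array at 219, against 997 at 0 h on replicate 1, and the other 2 Rps15 probe sets had 0.30 and -0.01.

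The means over both numbers covered opposite movements. Against the 0 h array of the same number, the 60 members had median changes of 0.51, 0.38, 0.32 and 0.36 at 2, 4, 8 and 24 h on replicate 2, with 48, 45, 48 and 49 above their control. On replicate 1 the medians were -0.45, -0.62, -0.36 and -0.10, with 15, 11, 15 and 23 above. At 2 h, 38 of 60 members were above their control on replicate 2 and below it on replicate 1, at 4 h 40, at 8 h 38 and at 24 h 29, while 10, 5, 10 and 20 were above on both. These are differences of 1 array from 1 array and carry no test, and all 4 of a number share its control array.

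**Figure D2:**
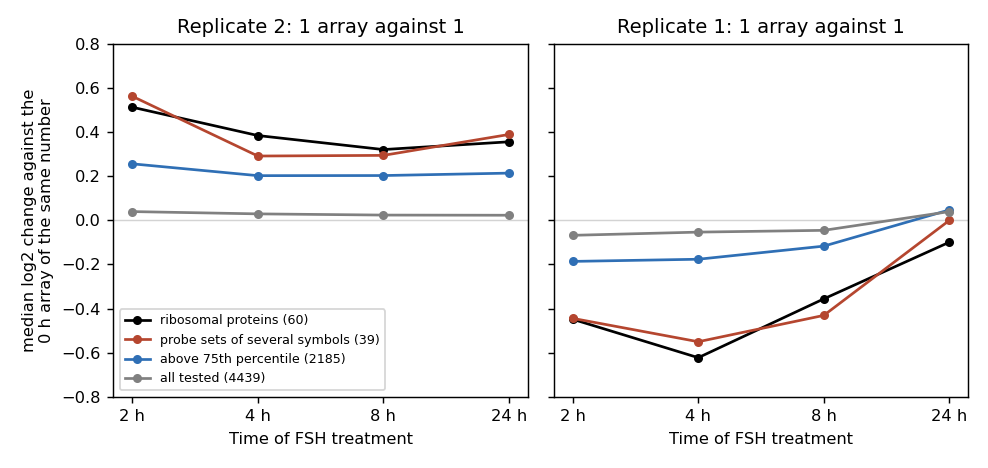
Median log2 change against the untreated array of the same replicate number at 2, 4, 8 and 24 h of FSH, replicate 2 left and replicate 1 right, for the 60 ribosomal protein probe sets, 39 tested probe sets that list a ribosomal protein among several symbols, probe sets above the 75th percentile of mean intensity, and all 4439 tested probe sets. The ribosomal protein medians lie between 0.32 and 0.51 on replicate 2 and between -0.62 and -0.10 on replicate 1.

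Bright probe sets in general had smaller shifts, of the same sign except on replicate 1 at 24 h. The medians of probe sets above the 75th percentile of mean intensity were 0.26, 0.20, 0.20 and 0.21 on replicate 2 and -0.19, -0.18, -0.12 and 0.05 on replicate 1, and those of all tested probe sets stayed between -0.07 and 0.04. The 39 tested probe sets with several symbols, which the rule left out, had medians of 0.56, 0.29, 0.30 and 0.39 on replicate 2 and -0.44, -0.55, -0.43 and 0.00 on replicate 1. Relative to each probe set's mean over the 10 arrays, the median member stood at -0.29 log2 on the untreated array of replicate 2, the lowest of its 5, and at 0.21 on that of replicate 1, the highest of its 5. Later arrays ranged from 0.05 to 0.23 on replicate 2 and from -0.33 to 0.18 on replicate 1. Before scaling, the untreated array of replicate 2 had the highest median intensity of all 10 arrays, 44.5, and that of replicate 1 the lowest, 26.7. Their 75th percentiles before scaling were 121 and 99.3, where all arrays ranged from 97.9 to 121. The part of this in the shifts of the members was not tested.

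**Figure D3:**
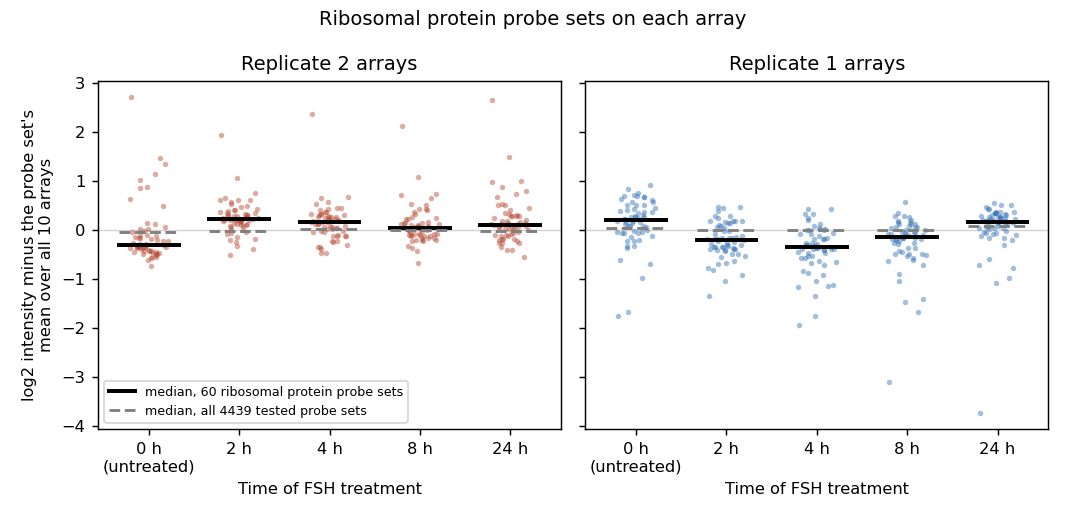
Log2 intensity of each of the 60 tested ribosomal protein probe sets on each array, minus the probe set's own mean over the 10 arrays, for replicate 2 (left) and replicate 1 (right) at 0, 2, 4, 8 and 24 h. Black lines are member medians and dashed grey lines the medians of all 4439 tested probe sets, and the untreated array has the lowest member median on replicate 2 (-0.29) and the highest on replicate 1 (0.21).

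The share of all signal on an array taken by the members was 7.58% to 10.3%. By time it was 9.01 ± 0.625% at 0 h, 9.30 ± 1.34% at 2 h, 8.70 ± 1.58% at 4 h, 8.59 ± 0.690% at 8 h and 9.54 ± 0.539% at 24 h (SD, n = 2 each). The arrays of every FSH time overlapped those of 0 h. Those of 8 h (8.10% and 9.08%) lay below those of 24 h (9.16% and 9.92%), which was not tested. Between 8 and 24 h the median change of the members was 0.15, against 0.07 for probe sets above the 75th percentile. No member passed the test for this step, as given above.

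A few ribosomal protein probe sets differed between the replicate numbers. Their share over both directions was near that of all probe sets. Most were higher on replicate 2, while among all probe sets more were lower there than higher. With time in the model, limma called 11 of 60 members (18.3%) between replicate 2 and replicate 1 at an adjusted p under 0.05, where 15.2% of all probe sets were called. Of these, 10 were higher on replicate 2 (6.53% of all probe sets were) and 1 was lower (8.65% of all). All 5 arrays of replicate 2 lay above all 5 of replicate 1 for 9 of 60 members (15.0%), against 5.47% of all probe sets, and below them for 3 of 60, against 5.09%. The count of 11 moved with single arrays: it was 21 without either untreated array, 6 without either 4 h array and 7 without either 8 h or either 24 h array. Since a pair is lost with either of its arrays, the value is the same for both.

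**Figure D4:**
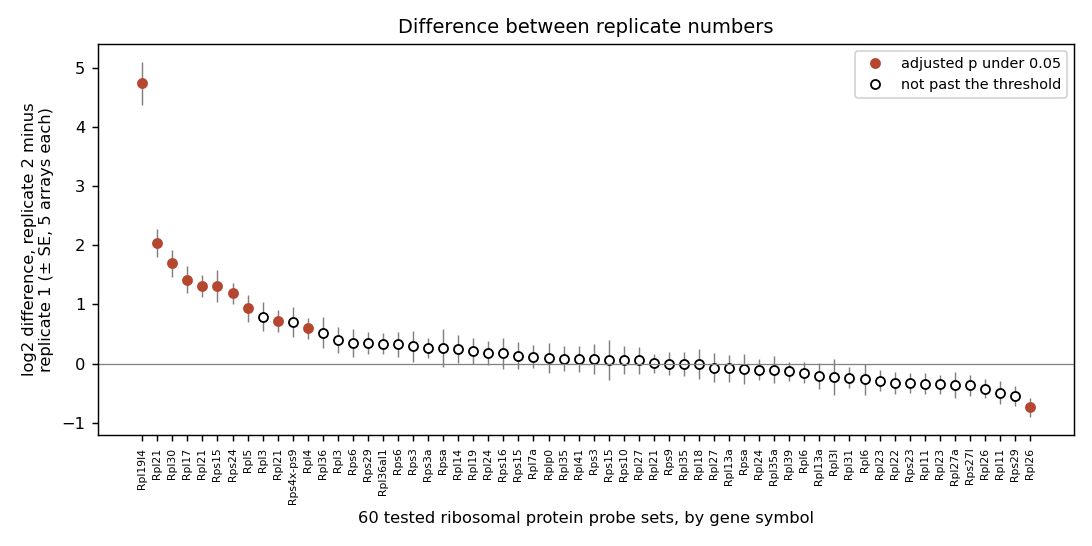
Log2 difference of replicate 2 minus replicate 1, with its limma standard error, for the 60 tested ribosomal protein probe sets, ordered by size and named by gene symbol, from 5 arrays of each number with time in the model. Filled points have an adjusted p under 0.05, and the difference runs from 4.74 for Rpl19l4 to -0.74 for one Rpl26 probe set.

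The largest of these differences, and the largest among all 4439 probe sets, was that of Rpl19l4, a copy of the 60S gene Rpl19. Its intensity was 2183, 1270, 1719, 1445 and 2090 at 0, 2, 4, 8 and 24 h on replicate 2 and 98.5, 130, 87.0, 38.8 and 24.8 on replicate 1, which do not overlap. The log2 difference was 4.74 (SE 0.36, 26.7-fold, limma adjusted p = 8.3e-05). The probe set of Rpl19 itself, by contrast, gave 4738 to 7358 on replicate 2 and 4703 to 6991 on replicate 1, a difference of 0.21 (SE 0.22, limma adjusted p = 0.563).

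Within Rpl21 the probe sets disagreed. One gave 264, 299, 214, 304 and 404 at 0, 2, 4, 8 and 24 h on replicate 2 and 124, 70.2, 56.2, 51.9 and 68.5 on replicate 1, a difference of 2.04 (4.13-fold, limma adjusted p = 0.000988). Its partner, derived from the same sequence entry, differed by 1.31 (adjusted p = 0.0026) and another by 0.72 (adjusted p = 0.0254). The fourth gave 1245 to 1709 on replicate 2 and 1215 to 1931 on replicate 1, a difference of 0.00 (adjusted p = 0.991). The difference by number is thus not shared by all probe sets of this gene.

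Rpl30, given above with its values, differed by 1.70 (3.24-fold, limma adjusted p = 0.0019) and Rpl17 by 1.42 (2.68-fold, adjusted p = 0.0038). Rps24, a 40S protein mutated in some patients with Diamond-Blackfan anaemia, gave 208, 150, 129, 149 and 148 at 0, 2, 4, 8 and 24 h on replicate 2 and 80.2, 63.7, 74.6, 55.6 and 67.9 on replicate 1, a difference of 1.19 (2.28-fold, adjusted p = 0.0031). In Rpl30 and Rps24 the arrays of the 2 numbers did not overlap, and in Rpl17 they did. One Rps15 probe set differed by 1.31 (adjusted p = 0.0111) and the other 2 by 0.14 and 0.07. Rpl5 differed by 0.94 (adjusted p = 0.0248) and Rpl4, which lines the peptide tunnel, by 0.60 (adjusted p = 0.0489), with 1656 to 2410 on replicate 2 and 1164 to 1598 on replicate 1.

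Lower on replicate 2 was Rpl26, which is known to promote translation of p53. One probe set gave 2041, 2200, 1864, 1938 and 1941 at 0, 2, 4, 8 and 24 h on replicate 2 and 2941, 3562, 3267, 3155 and 3796 on replicate 1, without overlap, a difference of -0.74 (SE 0.16, limma adjusted p = 0.0157). Its other probe set differed by -0.42 (adjusted p = 0.122), also without overlap. One of the 2 Rps29 probe sets did not overlap either, at 5243 to 6448 on replicate 2 and 6549 to 9393 on replicate 1, and its difference of -0.54 had an adjusted p of 0.0636. The other Rps29 probe set had the opposite sign, 0.35. Leaving out any 1 of the 10 arrays kept the calls of Rpl19l4, Rpl30, Rpl17, Rps24 and the 2 Rpl21 probe sets of one entry, and removed those of Rpl4 and Rpl5 in 8 of 10 cases, of Rpl26 and the remaining called Rpl21 probe set in 6 and of Rps15 in 2. The germ cell markers also moved with the number, with 5 of 8 tested probe sets called higher on replicate 2, and in the Sertoli list 6 of 16 were called lower. The part of either in these differences was not tested.

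**Figure D5:**
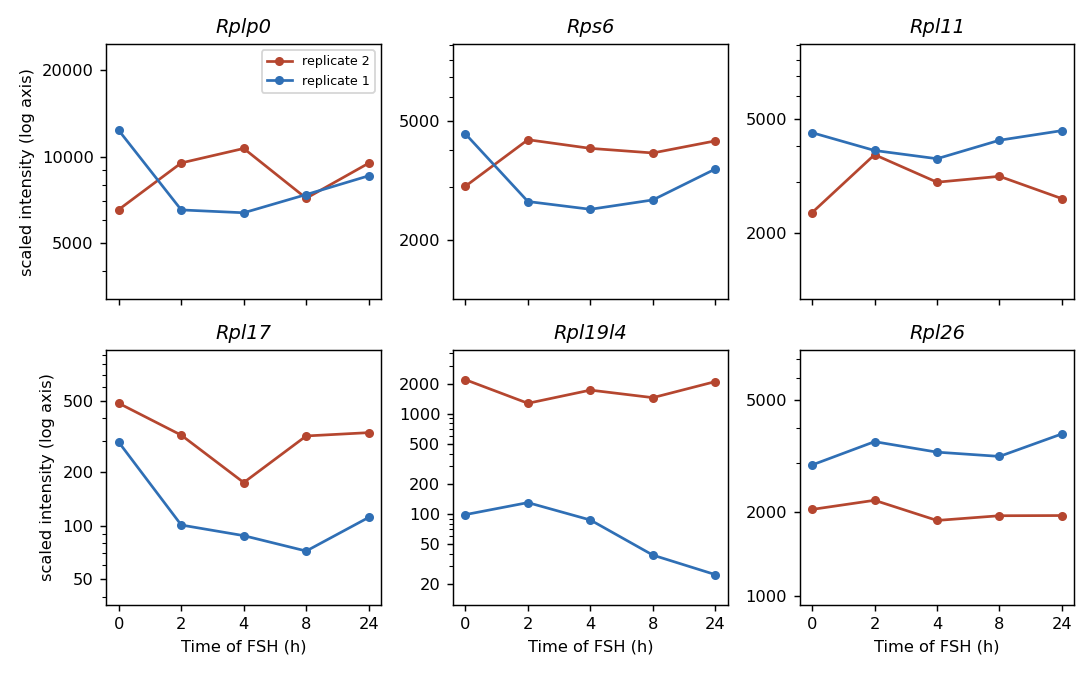
Scaled intensity on a log axis at 0, 2, 4, 8 and 24 h of FSH, replicate 2 in red and replicate 1 in blue, 1 array per point, for Rplp0, Rps6, Rpl11, Rpl17, Rpl19l4 and Rpl26. The lines of the 2 numbers cross between 0 and 2 h in Rplp0 and Rps6, and in Rplp0 again between 4 and 8 h and between 8 and 24 h. Replicate 2 lies above replicate 1 at each time in Rpl17 and Rpl19l4 and below it in Rpl11 and Rpl26.

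Of the genes with promoter entries, all 6 that were higher on replicate 2 (Rpl4, Rpl5, Rpl17, Rpl21, Rps15 and Rps24) had the pyrimidine run shown above, as did 18 of the 29 other tested members, and Rpl26 had none. CTTCCG was in 2 of the 6 and 13 of the 29. With 6 genes this is a description and carries no test.

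The members varied together across the arrays to a modest degree. Over the 1770 pairs of the 60 members, the median correlation of log2 intensity over the 10 arrays was 0.30, and 68.5% of pairs were positive. For the 57 members above the 75th percentile of mean intensity the median was 0.34, against 0.06 for all 2185 probe sets there. The arrays share preparation, scaling and time, so these are descriptions. Of 15 genes with more than 1 tested probe set, 11 had a correlation above 0.5 over the 10 arrays for every pair of them, among them Rpl11 (0.96), Rps3 (0.95) and Rps6 (0.90). The lowest was -0.65 for Rps29, and the sign of change against 0 h was shared at all 4 times in 3 genes, Rpl11, Rps3 and Rps29.

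Genes that work beside the ribosomal proteins gave the following counts against 0 h. In ribosome biogenesis (13 tested probe sets of 9 genes), limma called 0 at each time, with 0 at an unadjusted p under 0.05, and the median changes were 0.32, 0.48, 0.52 and 0.17 at 2, 4, 8 and 24 h, with 9, 11, 11 and 9 of 13 above 0. Its highest values rested on the untreated array of replicate 1. One probe set of Gnl3 (nucleostemin) gave 97.2, 99.4, 92.2, 102 and 75.7 at 0, 2, 4, 8 and 24 h on replicate 2 and 23.2, 119, 131, 103 and 51.4 on replicate 1, with mean changes of 1.20, 1.21, 1.11 and 0.39 (SE 0.59). Ddx21, a nucleolar RNA helicase, gave 96.4, 81.8, 69.9, 135 and 71.1 on replicate 2 and 28.2, 78.4, 76.3, 98.3 and 58.1 on replicate 1, with mean changes of 0.62, 0.48, 1.14 and 0.30 (SE 0.52). In both genes replicate 1 was above its control at every later time, and replicate 2 was not. The 2 probe sets of Dkc1, the pseudouridine synthase of ribosomal RNA, had changes from 0.29 to 0.70 (SE 0.35 and 0.32), with every later value above the control of its own number. The difference between this list and the ribosomal proteins was not tested.

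Genes of the 13 mitochondrial ribosomal proteins had medians of -0.06, -0.11, 0.01 and 0.10 and 0 calls (1 at an unadjusted p under 0.05, at 24 h). Genes of translation elongation (9 probe sets) had medians of -0.22, -0.10, -0.25 and -0.29. Genes with Eif symbols of translation initiation, whatever their role (30 probe sets), had 0.02, -0.07, -0.02 and 0.02. There were 0 calls in either (unadjusted counts of 0, 0, 0 and 1 for elongation and 0, 1, 4 and 0 for initiation). The S6 kinase and mTOR pathway (18 probe sets) had -0.03, 0.09, -0.10 and 0.16 and 0 calls (unadjusted counts of 0, 1, 2 and 0). Myc is known to drive transcription of ribosomal protein and biogenesis genes, Max is its partner, Mxi1 an antagonist, and Bmyc a shorter relative that lacks the DNA-binding domain. Of the 7 tested probe sets of these 4 genes, the 3 of Bmyc supplied all calls: 1 at 2 h, 3 at 4 h, 1 at 8 h and 0 at 24 h. With the replicate block the Bmyc calls were 1, 3, 2 and 1. The Bmyc probe set called at 2, 4 and 8 h gave 21.7, 113, 186, 89.2 and 98.7 at 0, 2, 4, 8 and 24 h on replicate 2 and 7.57, 146, 163, 101 and 106 on replicate 1, above its controls at every time. Myc itself gave 0.14 at 4 h and -0.54 at 8 h (SE 0.42) and was not called.

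By replicate number, the list of Eif symbols had 9 of 30 probe sets called, 8 higher and 1 lower on replicate 2. Of all probe sets 15.2% were called, 6.53% higher and 8.65% lower. The higher ones belonged to Eif3m at 0.97, Eif2b3 at 0.88 to 1.11, Eif2b1 at 0.78 and 1.20 and Eif4ebp1 at 0.94 and 1.05. The lower one was Eif4h at -0.97. One of 2 Eef1a1 probe sets was 1.64 higher on replicate 2 (limma adjusted p = 0.009), although it gave 585 at 0 h on both numbers. The other had 0.53 and was not called. In ribosome biogenesis only Ubtf, the ribosomal DNA transcription factor, was called, at -1.25. In the other lists, a probe set each of Akt1 (-0.63), Akt2 (-1.51) and Mxi1 (-0.67) was called lower on replicate 2. Mrps31 of the mitochondrial ribosome was called higher there (0.75). Among 39 tested probe sets listing a ribosomal protein with other symbols, 2 were called, 1 in each direction.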

How the data were processed

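Total RNA of 10 samples was measured on Affymetrix rat arrays. The deposited values are linear intensities, 1 per probe set and array. How the authors made them, and the software, are not given in the sources used here. The 2 h array without a number was taken as replicate 1, and the control whose title names no time as 0 h.

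Members and gene lists were chosen with earlier results of these data known. Symbols are those of the platform annotation (7006 probe sets with a single symbol, 308 with several, 1426 unnamed), and 63 of 64 member probe sets matched RefSeq (GRCr8) by gene identifier. After scaling, floor and filter, as given above, limma 3.58.1 in R 4.3.3 (lmFit, eBayes with an intensity trend, 5 residual degrees of freedom) tested 1 mean per time, and a second model tested replicate number beside time. Adjustment was by Benjamini-Hochberg over 4439 probe sets, with a threshold of 0.05. Array number limits the precision. All comparisons with 0 h share the control arrays.

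Arrays with the same number deviated together from their group means (correlations of 0.11 to 0.70 in all 10 pairs of times), so the number was also fitted as a block. Named genes were all called members, the 5 largest rises and falls per time, textbook members and probe sets of 1 gene. Code was tested on simulated data.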

Additional observations from a re-analysis of the deposited data

How the results depend on the processing

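The 2 arrays per time limit every result, and a member's interval often spans a 2-fold change. Over 189 alternative fits of the 9 comparisons and tests over time, 188 also called 0 members. The exception was the replicate block at 4 h, which called 1 (Rpl17). The replicate block changed no other member's call over time, but it moved calls outside the members, such as those of Bmyc (2 at 8 h and 1 at 24 h, against 1 and 0 without it). Alternatives were another normalization, floor, offset, filter and variance trend, 1 probe set per gene, each array left out (the lone array of a time is then assumed to vary like the others) and, chosen after seeing the data, leaving out pseudogene and copy symbols. The 11 members called by replicate number became 19 with quantile normalization, 19 with cyclic loess, 6 with no filter, 6 with 1 probe set per gene, and 6 to 21 when single arrays were left out; the cause was not tested. Leaving out single arrays gave median changes of -0.26 to 0.28 at 2 h, -0.36 to 0.19 at 4 h, -0.20 to 0.19 at 8 h and -0.11 to 0.42 at 24 h, so their signs are not settled. For the 11 members called by replicate number and for Rpl17 at 4 h, 223 values under alternatives were computed: 184 stayed on the same side of the threshold, 38 lost the call, 1 gained it (Rpl17 with the block) and 0 changed sign.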
